A study of Mus musculus with 3 samples.

Results

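Strongly GFP positive cells of the newborn mouse olfactory epithelium were compared with GFP negative cells of the same tissue, 1 array against 1 array. Of 18193 genes named by a probe set with a single symbol, 12235 gave signal above the floor on at least 1 of these arrays and make up the comparison, and 12331 did so on any of the 3 arrays of the study. A gene with several probe sets was read from the one that was brightest on average, and the rule raised every signal to a floor of 104 (the pooled median of all probe sets that are not controls) and formed the log2 ratio. Among the 12235 genes, 235 (1.92%) were at least 2-fold higher in the strongly positive cells and 1522 (12.4%) were at least 2-fold lower. The other 10478 differed by less than 2-fold.

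Every fraction was sorted from olfactory epithelium of male and female Tgn1-2G mice aged 5 to 8 postnatal days, for which the labels give the number 32, read here as mice. Tgn1-2G is a transgene known to drive GFP from regulatory sequence of Neurog1, which encodes a proneural factor of olfactory progenitors. Sorting by fluorescence gave 1000000 strongly positive cells (GFP+++), 1300000 weakly positive cells (GFP+) and 6800000 negative cells (GFP-). The submitters describe GFP+++ as rich in immature neurons and GFP- as holding the other cell types of the tissue with fewer immature neurons. Whether 1 set of mice gave all fractions is not in the labels. Each fraction is a pool measured once, so nothing below has a replicate error or a test, and every fold describes these arrays. In sorted bulk RNA, fewer cells of a type and less RNA per cell cannot be told apart.

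Olfactory sensory neurons are replaced from basal progenitors throughout life. A progenitor that leaves the cell cycle becomes an immature neuron that sends an axon to the olfactory bulb, chooses an odorant receptor and later builds the cilia and the cyclic AMP pathway of the mature cell. The neurons lie among sustentacular (supporting) cells, basal cells, Bowman's glands, ensheathing glia and the connective tissue, vessels and immune cells beneath the epithelium.

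The arrays differed in shape as well as in content. All 3 had been scaled to a trimmed mean of 500.0, yet the GFP+++ array had a median signal of 88.2 and 10734 genes over the floor, and the GFP- array had 118 and 12030. Scaling both arrays to a common median moves the median log2 fold of all genes from 0.01 to 0.42 and turns the split of 235 higher and 1522 lower genes into 1129 higher and 1045 lower genes. Quantile normalization gives 369 higher and 1308 lower genes. List medians below are therefore set beside the all-gene median of 0.01, and the median of 21 of 116 lists changes sign with a common median and that of 6 after quantile normalization. Those lists include tubulins, kinesins, G protein subunits, odorant receptors, helix loop helix genes, DNA replication genes, imprinted genes and the serine and folate list. For the beta-actin control, the 3' probe set gave 1.46 times the signal of the 5' probe set in GFP+++ and 1.43 times in GFP-. The 18S ribosomal RNA control gave a signal of 2748 in GFP+++ and 7166 in GFP-, and its part in the results was not tested. Between probe sets of the same gene the log2 folds had an SD of 0.30 (4633 genes). This is a spread among probe sets read on the same arrays, and it holds no error between arrays or between samples.

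**Figure D1:**
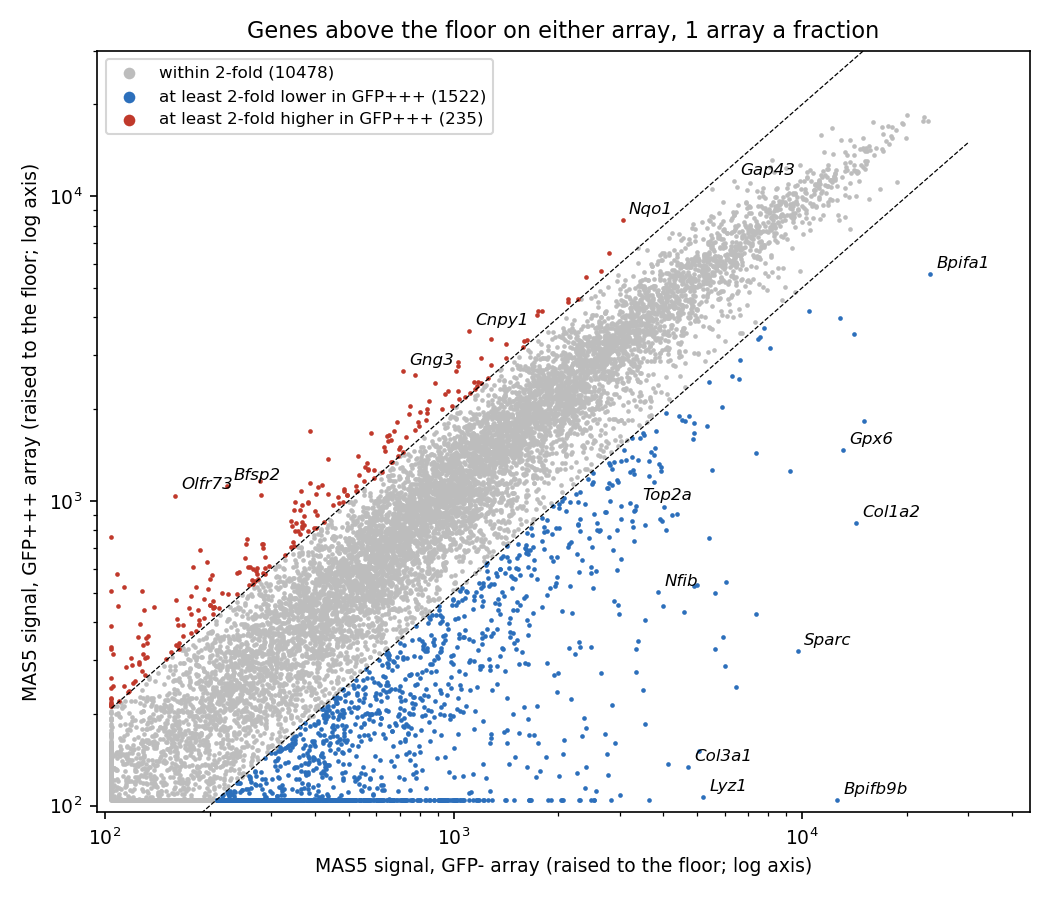
MAS5 signal of 12235 genes on the GFP- array (x axis, log scale) and the GFP+++ array (y axis, log scale), with signals under the floor drawn at the floor and dashed lines at 2-fold. The 1522 lower genes spread far from the diagonal and many lie on the floor of the GFP+++ array, whereas the 235 higher genes stay near the 2-fold line. The split is 1129 higher and 1045 lower with a common median.

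The fractions were set against cell type markers. The summed signal of 17 immature neuron markers came to 134529 for GFP+++, against 92175 for GFP+ and 112492 for GFP-, and the median log2 fold of the 16 measured ones was 0.28. Gap43, a growth cone protein, had 11233 in GFP+++ and 6395 in GFP-, a 1.76-fold difference, so the GFP- array also carried a high signal for it. The summed signal of 17 mature neuron markers was 70260 in GFP+++ and 98351 in GFP-. All 13 measured markers of Bowman's gland and secretory cells and 17 of 18 of leukocytes were at least 2-fold lower in GFP+++. The summed signal of 21 leukocyte markers was 2363 in GFP+++ and 31754 in GFP-. For 15 markers of respiratory ciliated cells the order was the other way, at 18628 in GFP+++ and 13578 in GFP-, with Tppp3 and Dnah9 higher by over 2-fold.

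The higher genes differed less from GFP- than the lower genes did. A 3-fold difference was reached by 24 genes that were higher and by 747 that were lower, and 79 genes were at least 10-fold lower. On the GFP- array 16 of the 235 higher genes lay under the floor, and 620 of the 1522 lower genes lay under it in GFP+++, so that their folds are lower bounds, written as at least. Where another probe set of the gene was above the floor on both arrays, every one had the same direction in 53 of the 59 higher genes and in 245 of the 255 lower genes concerned. At the threshold, Nexmif, a neurite extension factor, was 2.002-fold higher, and Cenpt, a centromere protein, fell just outside at 1.9999-fold.

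Sorting the 235 higher genes by known function, after their values were seen, placed 22 among signalling and excitability genes, 21 in transcription and chromatin, 18 in the cytoskeleton, 18 in metabolism and mitochondria, 15 in small GTPases and membrane traffic and 14 in axon, synapse and adhesion proteins. Another 8 were odorant receptors, 4 belonged to the amino acid stress response, 52 were long non-coding RNA genes by RefSeq and 63 were not sorted. Of the 235 genes 49 stood in any of the 87 family lists and 16 marker lists. The same lists held 664 of the 1522 lower genes and 2898 of all 12235 measured genes.

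Some of the largest folds belonged to genes of little known function. Pwwp3b, a PWWP domain gene, had 1160 in GFP+++, 378 in GFP+ and 278 in GFP-, a 4.17-fold difference. Lysmd4, a LysM domain gene, had 576, 248 and 108, a 5.31-fold difference. Cnpy1, of the saposin-like Canopy family, was the brightest of these at 3610, 1214 and 1108, a 3.26-fold difference, and its 2 other probe sets above the floor agreed in direction. Prag1, a pseudokinase that binds small GTPases, was 3.15-fold higher (1374, 538 and 436). In all 4 genes GFP+ lay nearer to GFP- than to GFP+++.

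Among axon and adhesion genes, Cntn2, a contactin that binds axons to each other, gave 522 in GFP+++ against 118 in GFP+ and 114 in GFP-, a 4.60-fold difference. Dcc, the netrin receptor of growing axons, had 633, 267 and 196, a 3.23-fold difference. For both genes the GFP+ value lay close to GFP-, and the GFP+++ value stood apart. The ligand genes Ntn1 and Slit2 ran the other way. Ntn1, which encodes the Dcc ligand netrin-1, had 264 in GFP+++ and 637 in GFP-, 2.41-fold lower. Slit2, a repellent that acts through Robo receptors, had 271 and 753, 2.78-fold lower. Cbln1, a synapse organiser, was 3.39-fold higher (439 in GFP+++, 185 in GFP+, 130 in GFP-). Hs3st3b1, which adds a sulfate to heparan sulfate chains, was 3.23-fold higher. Among 10 measured Slit, Robo, netrin, Dcc and Unc5 genes, Dcc alone was higher and Slit2 and Ntn1 were lower by 2-fold, and 6 lay above 0. With a common median 1 is higher and 1 lower.

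Intermediate filaments split within the family. Bfsp2, known as a filament protein of the lens, had 1116 in GFP+++, 259 in GFP+ and 224 in GFP-, a 4.98-fold difference. Prph, the peripheral neuron filament peripherin, had 3404, 1423 and 1278, a 2.66-fold difference. Ina, the filament alpha-internexin of developing neurons, had 4205, 1775 and 1749, a 2.40-fold difference. Nefl, the light neurofilament of mature axons, went the other way at 37.6 in GFP+++, 186 in GFP+ and 292 in GFP-, at least 2.79-fold lower. Vim, the filament of precursors and many other cells, had the highest signal of the family, 15917 in GFP+++ and 11311 in GFP-, a 1.41-fold difference. This family was listed after its values were seen.

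Of 37 measured microtubule associated and destabilising proteins, 3 were higher (8.11%) and none was lower by 2-fold, with a median log2 fold of 0.32, and 30 of 37 lay above 0. A common median gives 7 higher. Tppp3, a tubulin polymerization promoter, was 2.76-fold higher (2446 in GFP+++, 2195 in GFP+, 886 in GFP-). Mapt, the axonal protein tau, was 2.51-fold higher (1699, 731 and 676), and its 3 other probe sets above the floor went the same way. Crmp1, a collapsin response mediator, was 2.10-fold higher (4489, 2556 and 2136). Palm, a membrane protein of neurites, was 2.68-fold higher, and Septin6, a septin, 2.94-fold. Among 14 tubulins Tubg2, a gamma tubulin that seeds microtubules, was 2.33-fold higher, and no tubulin was 2-fold lower. The median log2 fold of the tubulins, -0.04, turns to 0.41 with a common median, where 4 are past 2-fold, all higher.

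Among 25 measured G protein subunits 1 was higher (4%) and 4 were lower (16%) by 2-fold, beside 1.92% and 12.4% of all genes. Those counts turn to 5 higher and 2 lower with a common median. Gng3, a neuronal G protein gamma subunit, had 2670 in GFP+++, 1630 in GFP+ and 715 in GFP-, a 3.73-fold difference with all 3 arrays apart. Gng8, the gamma subunit of immature olfactory neurons, had 6192 and 3928, a 1.58-fold difference. Gng13, the gamma subunit of mature olfactory neurons, had 8277 and 8744. Gng11, a widely expressed gamma subunit, had 39.6 and 394, at least 3.78-fold lower, and the alpha subunit gene Gnai1 was 4.01-fold lower. Rgs11, which speeds the shutdown of G protein signals, was 2.17-fold higher (2786 and 1285), while 6 other RGS genes were lower, among them Rgs5, a pericyte gene, with 3523 in GFP+++ and 14137 in GFP-. Pde1b and Pde1c, calcium dependent phosphodiesterases of cyclic nucleotides, went opposite ways. Pde1b was 2.18-fold higher (450 and 206), and Pde1c, an enzyme of mature olfactory cilia, was 2.03-fold lower (1237 in GFP+++, 3615 in GFP+, 2510 in GFP-).

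With the values as deposited, potassium and chloride channel lists held genes past 2-fold and sodium and calcium channel lists held none, which changes with a common median. Kcnip2, a subunit that tunes potassium currents, had 326 in GFP+++ and 86.7 in GFP-, at least 3.13-fold higher. Of 43 measured potassium channel genes 11 were lower (25.6%), or 8 with a common median, the brightest being Kcnk1 (843 and 2573), a background potassium channel. The second higher gene caught by that list, Kcnmb4os2, is an antisense transcript gene and no channel. Of 16 chloride channels and anoctamins 4 were lower and none higher, or 3 lower and 1 higher with a common median, among them Ano1, a calcium gated chloride channel, with 73.4 in GFP+++, 892 in GFP+ and 1654 in GFP-, at least 15.8-fold lower. All 7 sodium channel genes and all 10 voltage gated calcium channel genes stayed within 2-fold, each list with a median log2 fold of 0.42. Under the common median 3 of those sodium channel genes and 2 of those calcium channel genes pass 2-fold, all higher.

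**Figure D2:**
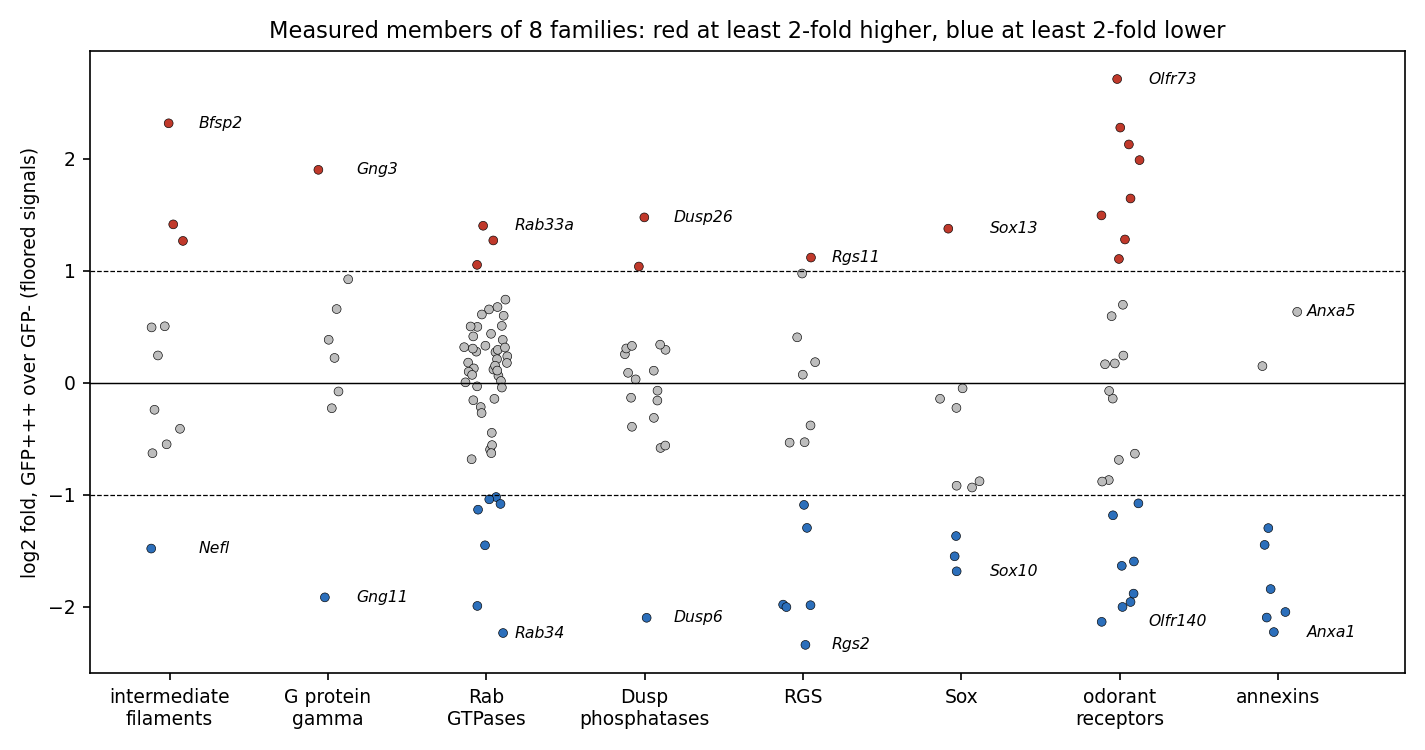
Log2 fold of GFP+++ over GFP- for each measured member of 8 gene families, with dashed lines at 2-fold (red higher, blue lower, grey within) and the extreme members named. Each family but the annexins holds members past 2-fold in both directions, with Bfsp2 against Nefl, Gng3 against Gng11 and Sox13 against Sox10 at the ends. With a common median the Rab GTPases turn from 3 higher and 7 lower to 8 higher and 3 lower. Positions are spread sideways at random for legibility.

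Of 52 measured Rab GTPases, which route vesicles, 3 were higher and 7 lower by 2-fold, which turns to 8 higher and 3 lower with a common median, and 34 lay above 0. The lower share, 13.5%, is near the 12.4% of all genes. Rab33a, a Rab of growing neurites, had 1400 in GFP+++, 711 in GFP+ and 530 in GFP-, a 2.64-fold difference. Rab3b, a Rab of regulated secretion, had 2054, 2267 and 991, so that GFP+ was as high as GFP+++. Rab34 was at least 4.71-fold lower (95.4 and 492), and Rab27b, a Rab of secretory granules, was 3.98-fold lower (109 and 434). Dennd2a and Dennd1c, exchange factors that switch Rab proteins on, were 2.03-fold and 2.01-fold higher and Dennd2d was 2.32-fold lower. A second probe set of Dennd2a went the other way.

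Of 18 measured Dusp genes, most of which encode dual specificity phosphatases, 2 were higher (11.1%) and 1 was lower (5.56%, under the 12.4% of all genes). Dusp26 was 2.78-fold higher (556 in GFP+++, 358 in GFP+, 200 in GFP-) and Dusp15 at least 2.05-fold higher. Dusp6, a feedback inhibitor of Erk signalling, had 579, 1547 and 2483 and was 4.29-fold lower. Fgf18, a growth factor, was at least 2.10-fold higher (220 and 61.5), whereas the receptor genes Fgfr1 and Fgfr2 were 3.44-fold and at least 4.38-fold lower.

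Odorant receptor genes passed 2-fold in both directions. Of 27 measured genes 8 were higher and 8 lower by 2-fold (9 and 6 with a common median). Each count is 29.6% of the list, beside 1.92% higher and 12.4% lower of all genes. All 8 lower ones were under the floor in GFP+++. Olfr73 had 1040 in GFP+++, 861 in GFP+ and 159 in GFP-. Olfr749 had 1696, 1570 and 388, a 4.37-fold difference, and Olfr154 had 505, 468 and 127, a 3.96-fold difference. Olfr672 had 1574, 2974 and 649, so GFP+ was above GFP+++. In these 4 receptors GFP+ stood with GFP+++ and away from GFP-. Among the lower ones, Olfr140 had 62.3, 207 and 459, and Olfr17 had 70.5, 286 and 385, so that GFP+ lay between. Only 39 receptor genes had a probe set with a single symbol, a small part of the family. A change of floor moves this list: its median log2 fold was -0.07, turned to 0.38 with a common median and 0.20 after quantile normalization, and was 0.24 with the higher floor and 1.39 over receptors above the floor on both arrays.

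Values of 3 genes known from zones of the epithelium, set together after they were seen, are given here. Nqo1, a quinone reductase known from the dorsal zone of the epithelium, had the largest gain in signal of all genes, with 8351 in GFP+++, 8432 in GFP+ and 3054 in GFP-. Ncam2, an adhesion molecule known from the ventral zone, had 292, 950 and 1540 and was 5.27-fold lower. Nrp2, a semaphorin receptor of ventral zone axons, had 1106, 1606 and 2781 and was 2.51-fold lower. On the signal scale Pdap1 (10584 and 5498), Socs2 (13120 and 8208), Gap43, Vim and Stmn3 (16750 and 12169) followed Nqo1, all within 2-fold.

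**Figure D3:**
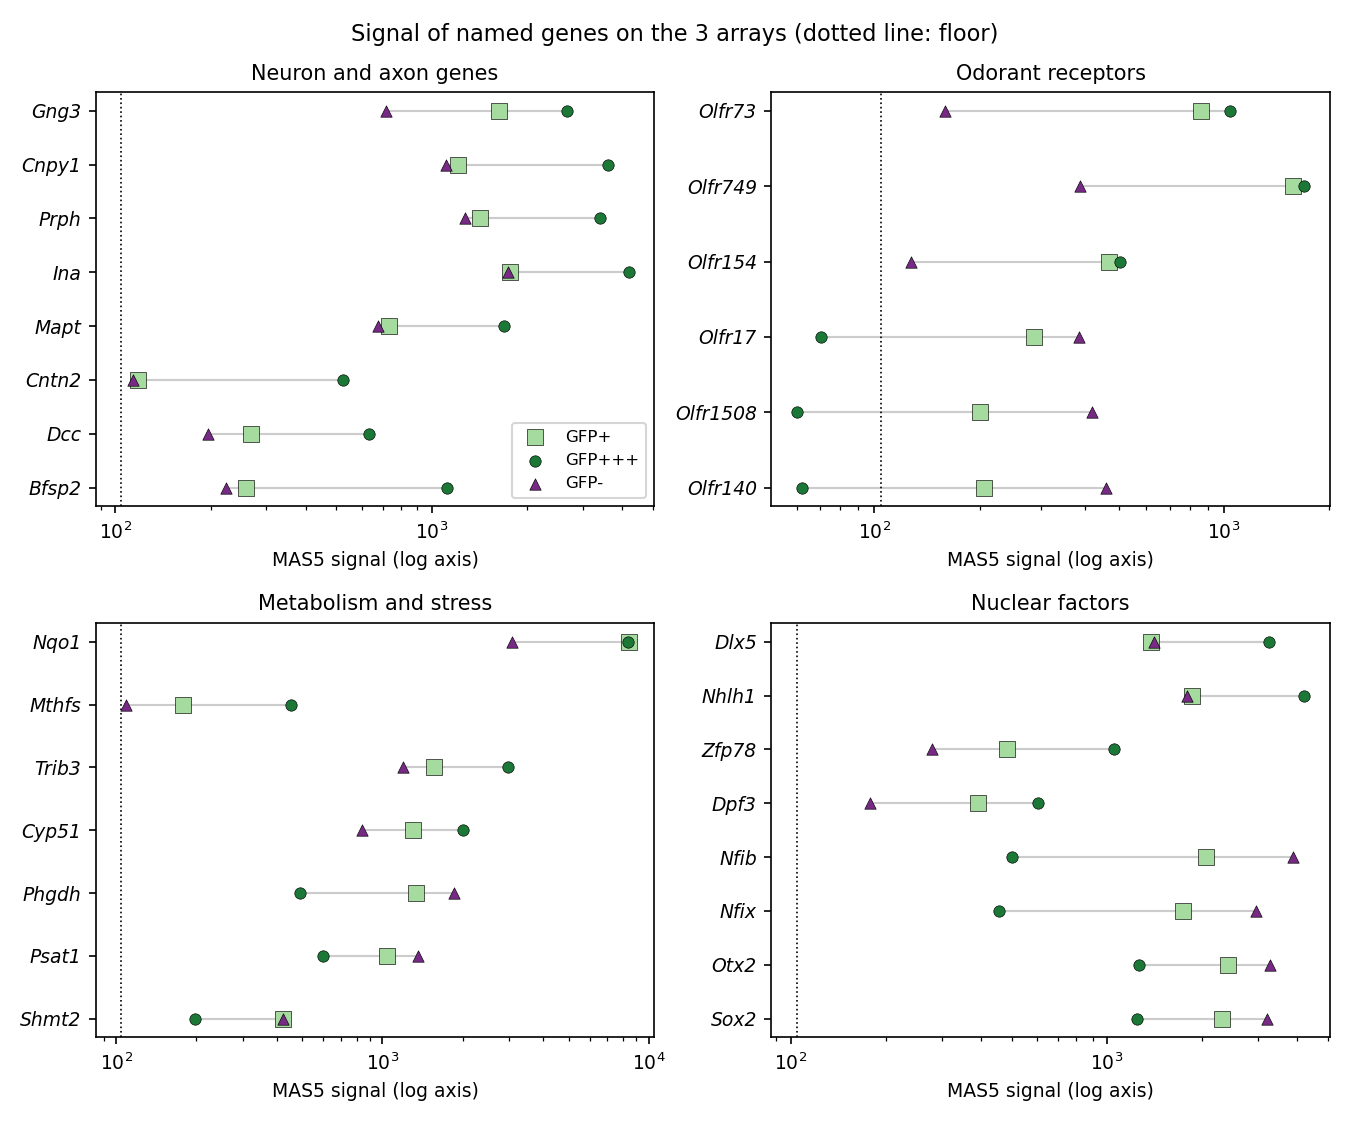
MAS5 signal (log axis) of named genes on the GFP+++ (circle), GFP+ (square) and GFP- (triangle) arrays, with the floor dotted. GFP+ lies near GFP- for Cntn2, Ina and Dlx5 and near GFP+++ for Olfr73, Olfr749 and Nqo1. With a common median the ratios of Phgdh, Psat1 and Shmt2 move toward 1 and those of the higher genes away from it.

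The lists of homeobox, helix loop helix, Sox, nuclear receptor and Ets-like genes each held more members lower than higher by 2-fold. Of 51 genes of the homeobox list 16 were lower (31.4%), or 13 with a common median, among them the LIM domain genes Lmo7 and Ldb3, which are no homeobox genes. Of the same list 2 were higher, Dlx5 and its neighbouring transcript Dlx6os1, the second being no homeobox gene, and 6 are higher with a common median. Dlx5 had 3265 in GFP+++, 1373 in GFP+ and 1410 in GFP-, a 2.32-fold difference. Otx2, a head patterning factor, had 1259, 2409 and 3273, 2.60-fold lower, and Pax6, a factor of sensory epithelia, was 3.83-fold lower. Nhlh1, a helix loop helix factor of young neurons, was 2.35-fold higher (4211, 1856 and 1794). The other 9 helix loop helix genes past 2-fold were lower, Id1, Id3, Hes1 and Hey1 among them, which encode inhibitors of neuronal differentiation. Under the common median 4 helix loop helix genes are higher and 5 lower, and the median log2 fold of that list turns from -0.21 to 0.16. Sox13 was 2.59-fold higher (991, 383 and 382), Sox2, a progenitor factor, was 2.59-fold lower (1245, 2308 and 3218), and Sox10, a glial factor, was at least 3.22-fold lower. Myt1, a zinc finger factor of neuronal differentiation, was 2.87-fold higher (1666, 739 and 581), and Mef2b 2.16-fold. Of 28 genes of the nuclear receptor list 11 were lower and none higher, or 7 lower with a common median, and 1 of the 11 is Ppargc1b, which encodes a coactivator and no receptor. Of 48 Ets, Irf, Stat, Runx and NF-kB genes 15 were lower and none higher, or 12 lower with a common median.

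All 4 nuclear factor I genes, which encode factors of glial, epithelial and late neuronal genes, were lower. Nfib had 501 in GFP+++, 2056 in GFP+ and 3865 in GFP-, 7.72-fold lower, and its 4 other probe sets above the floor went the same way. Nfix was 6.50-fold lower (455, 1743 and 2961), Nfia 6.40-fold (190, 866 and 1215) and Nfic 2.16-fold (302, 720 and 651), and in each GFP+++ was the lowest array. With a common median or quantiles, 3 of the 4 stay past 2-fold. Eya1, Eya2 and Eya4, transcription cofactors, were 3.80-fold, 4.22-fold and 2.91-fold lower, and Eya3 was 1.49-fold higher. Of 7 genes listed as effectors of the Hippo pathway, Yap1 and Wwtr1 were 5.00-fold and 4.78-fold lower and the other 5 were within 2-fold. These families were listed after their values were seen.

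The large family of Zfp and related zinc finger genes departed from this pattern. Of 328 measured genes 9 were higher (2.74%) and 7 lower (2.13%), the median log2 fold was 0.23 and 239 lay above 0. Scaling to a common median gave 50 higher and 3 lower. Zfp78 was 3.75-fold higher (1049 in GFP+++, 483 in GFP+, 279 in GFP-), and Zbtb46 2.96-fold (1143, 878 and 387). The 3 lower members with the highest signal in GFP-, Zfp36l1, Zfp36l2 and Zfp36, encode RNA binding proteins that hasten mRNA decay and not DNA binding factors. Zfp36l1 had 933, 3088 and 3315, 3.55-fold lower. Among chromatin genes, Dpf3, a reader subunit of the BAF remodelling complex, was 3.40-fold higher (606, 390 and 178), and the deacetylase gene Hdac7 was at least 2.92-fold lower. The lists of histone methylation enzymes and of deacetylase and remodelling genes had 1 member past 2-fold in each direction, out of 63 and 67, and the higher one of the methylation list, Mllt11, is no such enzyme. Under the common median 4 and 6 are higher, and none and 1 lower.

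Long non-coding RNA genes made up a larger share of the higher genes than of the lower genes or the genes within 2-fold. RefSeq gave a gene type for 234 of the higher genes, and 52 of them (22.2%) were long non-coding, against 13 of 1521 lower genes (0.855%) and 281 of 10457 genes within 2-fold (2.69%). Put the other way, 52 of 346 measured long non-coding genes were higher and 3.76% were lower, and 1.54% of 11816 protein coding genes were higher and 12.7% lower. The median log2 fold was 0.39 for the long non-coding genes and 0.00 for the coding genes. Long non-coding genes were dimmer, with a median signal of 313 on the brighter array against 832, so the share was also taken within ranges of signal. Under 300 it was 5.42% against 0.569%, from 300 to 1000 it was 26.5% against 2.06%, and over 1000 it was 12 of 63 genes against 1.59%. The share of non-coding genes among the higher genes was 20.1% after quantile normalization, 10.3% with a common median, 10.4% at a fold of 1.5 and 4.17% at a fold of 3. The type was examined after the values were seen.

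The brightest of these genes was 2810410L24Rik, with 6489 in GFP+++, 3103 in GFP+ and 2801 in GFP-, a 2.32-fold difference. The transcript gene 4932412D23Rik had 2595, 1948 and 777, a 3.34-fold difference. Snhg14, the long host transcript of small nucleolar RNAs in an imprinted region, had 889, 451 and 372, and Snhg7, another host gene, had 1163, 666 and 554. The antisense or divergent transcripts Dlx6os1, Kcnmb4os2 and Stamos were 2.61-fold, 2.41-fold and 2.03-fold higher. The functions of most of the others are not known, and probe sets in such genes can also detect extended ends of a neighbouring gene, which was not tested.

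**Figure D4:**
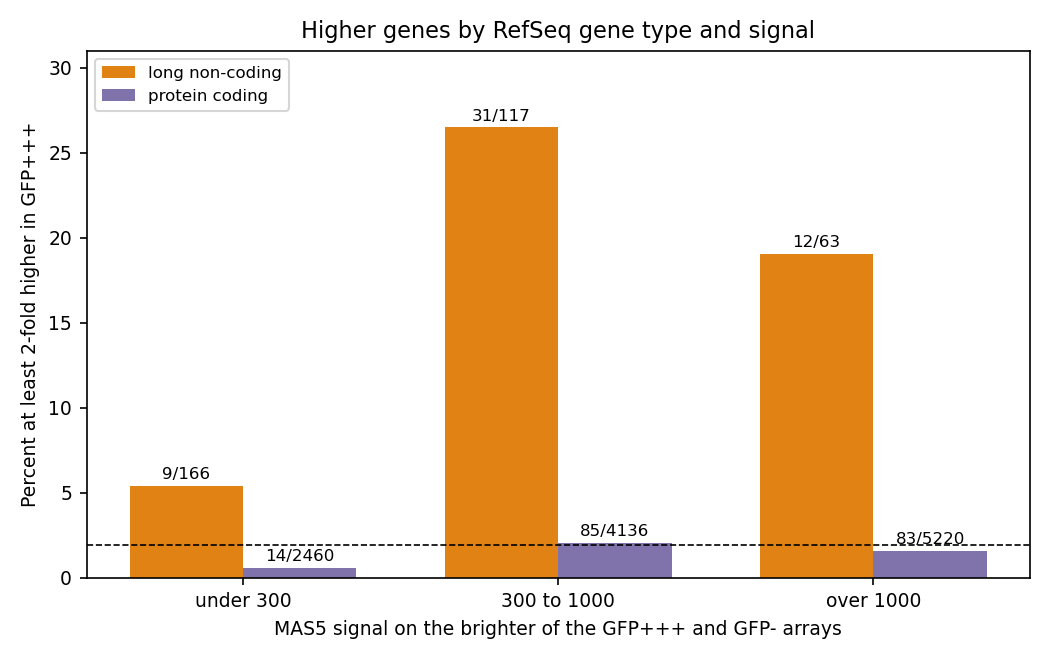
Percent of long non-coding (orange) and protein coding (purple) genes at least 2-fold higher in GFP+++, by the signal of the brighter array, with the counts over each bar and the share of all genes dashed. In each of the 3 ranges the long non-coding share is the larger, at 9 of 166, 31 of 117 and 12 of 63 genes.

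In metabolism, genes of the sterol pathway lay mostly above 0. Of 23 measured genes of sterol synthesis and uptake 20 had a positive log2 fold, the median was 0.70, and 2 passed 2-fold. Cyp51, the lanosterol demethylase, had 2007 in GFP+++, 1303 in GFP+ and 839 in GFP-, a 2.39-fold difference, and Mvk, mevalonate kinase, had 1259, 844 and 568, a 2.22-fold difference. Under the common median 12 of the 23 were past 2-fold, all higher. Serine and folate metabolism ran in both directions. Mthfs, which recycles folinic acid, was 4.14-fold higher (451, 179 and 109). Phgdh, the first enzyme of serine synthesis, was 3.79-fold lower (490, 1336 and 1860), Psat1, the second, was 2.27-fold lower (597, 1036 and 1355), and Psph, the last, was within 2-fold (883, 659 and 586). Of the 27 genes of that list 6 were lower and 1 higher, and with a common median 1 was lower and 4 higher.

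The amino acid stress response, a set of targets of the factor Atf4 listed after its values were seen, had 4 of 18 measured genes higher and 1 lower, and 16 of 18 lay above 0. Trib3, a pseudokinase that restrains Atf4, had 2953 in GFP+++, 1561 in GFP+ and 1196 in GFP-, a 2.47-fold difference. Chac1, which degrades glutathione, was 2.09-fold higher (797, 476 and 382). Sesn2, a sensor of leucine, was at least 3.18-fold higher (332, 58.2 and 62.7). Nupr1l was 2.85-fold higher, and its relative Nupr1 was 2.70-fold lower. Atf4 itself had 6410, 4533 and 4147, a 1.55-fold difference, and Asns, asparagine synthetase, had 1282 and 1189. Immediate early genes, likewise listed afterwards, were lower in 12 of 19 cases, or 7 with a common median, among them Fos (3463 in GFP+++, 7589 in GFP-), Egr1 (1840 and 4517) and Ier3 (212 and 1086), while Jun was 1.19-fold and Dusp1 1.23-fold higher.

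Secretory products of the mucosa were lower. Of 25 measured Bpif, lipocalin, odorant binding, secretoglobin and mucin genes 22 were lower (88.0%), none was above 0, and the median log2 fold was -2.89. Bpifa1, an antimicrobial secreted protein, had the brightest signal of GFP-, with 5544 in GFP+++, 15274 in GFP+ and 23339 in GFP-. Bpifb9b had 86.2, 3491 and 12602, at least 121-fold lower, the largest fold of any gene. Obp1a, an odorant binding protein, was 16.0-fold lower (125, 631 and 2008), and Muc2, a gel forming mucin, 2.51-fold (1174, 2346 and 2946). GFP+ lay between the other fractions in all 4 genes. All 5 measured aquaporins, listed afterwards, were lower, with Aqp4 at 953 and 4027 and Aqp3 at 1350 and 3640.

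Detoxifying enzymes, which are abundant in sustentacular cells and glands, were also often lower. Of 15 measured cytochrome P450 genes of families 1 to 4, 8 were lower, and of 27 glutathione transferases and peroxidases 14 were lower. Cyp2f2 had 3976 in GFP+++, 9100 in GFP+ and 12852 in GFP-, 3.23-fold lower, and Cyp1a2 763, 2025 and 2785. Gstm1 was 7.37-fold lower (1250, 5882 and 9215), and Gpx6, a glutathione peroxidase of the olfactory mucosa, was 8.97-fold lower (1464, 5984 and 13128). No gene of either list was 2-fold higher.

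Epithelial structure genes held lower members too. Of 17 keratins 8 were lower and none higher, or 5 lower and 1 higher with a common median, with Krt8 and Krt18, the pair of simple epithelia, at 3171 in GFP+++ and 8086 in GFP-, and at 2891 and 6630. Krt5 and Krt14, the pair of horizontal basal cells, had 128 and 542, and 60.7 and 511. Of 24 tight junction and gap junction genes 10 were lower, among them Cldn10, a claudin (192, 977 and 1639). Marveld2, which encodes tricellulin of tricellular junctions, was the only higher one, at 1218, 731 and 536. With a common median 8 genes of that list are lower and 2 higher. Cdh1, epithelial cadherin, was 3.05-fold lower (1756, 3938 and 5352), and Itgav, an integrin, 7.34-fold (272, 1246 and 1993).

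Matrix genes were mostly lower. Of 34 collagens 22 were lower (64.7%), of 25 proteoglycans 17, and of 32 glycoproteins of elastic fibres and matricellular proteins 20 (62.5%), with median log2 folds of -1.47, -1.86 and -2.01. Col1a2, a chain of collagen I, had 847 in GFP+++, 8570 in GFP+ and 14317 in GFP-, 16.9-fold lower. Sparc, a collagen binding glycoprotein, was 30.1-fold lower (322, 5185 and 9707), and Col4a1, a basement membrane chain, 12.7-fold (164, 1388 and 2074). Ccn3 was the exception, 2.10-fold higher with 3340, 1752 and 1594, and its relatives Ccn1 and Ccn2 were lower. Quantile normalization takes Ccn3 under 2-fold. Genes of the contractile apparatus, listed afterwards, were lower in 11 of 19 cases. Acta2, smooth muscle actin, was 17.2-fold lower (326, 3310 and 5612) and Tagln at least 19.7-fold, whereas Tagln3, the neuronal transgelin, was 2.48-fold higher (702, 385 and 284).

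Of 20 annexins and S100 proteins, which bind calcium, 15 were lower. Anxa1 was 4.68-fold lower (901 in GFP+++, 3251 in GFP+, 4222 in GFP-) and Anxa2 4.14-fold (691, 2161 and 2859). Anxa5, which binds exposed phosphatidylserine, was an exception at 12500, 8990 and 8068, 1.55-fold higher. S100a5, a calcium binding protein of mature olfactory neurons, had 11132 in GFP+++ and 18708 in GFP- and stayed within 2-fold. Of 11 lipoprotein genes, listed afterwards, 8 were lower. Apoe, the carrier of lipids between cells, had the highest signal of them, with 541, 3976 and 6050, an 11.2-fold difference.

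Immune gene lists held many lower genes. Of 16 neutrophil granule and myeloid enzyme genes 14 were lower, with a median log2 fold of -2.73, and of 7 genes of the MHC class II pathway 6 were lower. Csf1r, the macrophage growth factor receptor, had 150.6 in GFP+++, 3685 in GFP+ and 5051 in GFP-, 33.5-fold lower. Ngp, a neutrophil granule protein, had 14.1, 1170 and 655, and Lcn2, a lipocalin of neutrophils and glands, 160, 2587 and 1745. In both of these genes GFP+ exceeded GFP-, unlike in Csf1r. Of 27 chemokines and their receptors 17 were lower, the brightest being Cxcl12 (145, 1018 and 1838), a stromal chemokine. Psmb8 and Psmb10, which are among the inducible subunits of the immunoproteasome, were at least 2.48-fold and 2.51-fold lower. No other of the 47 measured proteasome genes passed 2-fold.

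Growth factor lists held lower ligands, receptors and inhibitors, while most members of the Wnt, TGF-beta and Notch lists were within 2-fold. Of 35 Wnt genes 15 were lower and none higher, with a median log2 fold of -0.89. The ligands Wnt4 and Wnt6, the receptors Fzd1, Fzd2, Fzd6, Fzd7 and Fzd8, the secreted inhibitors Sfrp1, Sfrp2 and Sfrp4 and the stem cell receptor Lgr5 were among them. Sfrp2 had 115, 1381 and 2389 in the same order of arrays, and Fzd1 had 320, 706 and 913. Of 40 TGF-beta and BMP genes 17 were lower and none higher, or 16 lower and 2 higher with a common median. Tgfbr2, the type II receptor, had 133.98, 972 and 1629. Of 27 genes of the Egf, Pdgf and Vegf list 14 were lower, among them Erbb3, a neuregulin receptor of glia (437, 1055 and 1518). No Vegf gene was among the 14. The list also caught genes outside these families, and Kitl, the Kit ligand (590, 1684 and 2571), Kit, Met, Csf1r, Csf2rb and Csf3r were lower members of that kind. Of 23 Notch pathway genes 6 were lower and none higher, or 3 lower with a common median, with the receptor Notch2 at 860, 2596 and 3971. Of 15 genes of the insulin like growth factor axis 7 were lower and none lay above 0, with Igf2 17.8-fold lower (134.4, 1406 and 2393). Igf2 is imprinted, and 8 of 19 measured imprinted genes, a list set afterwards, were lower, among them Plagl1 (988, 2188 and 3207), a regulator of other imprinted genes, and Ndn (188, 636 and 848), whereas Peg3, Meg3 and Cdkn1c were within 2-fold. The median log2 fold of that list, -0.31, turns to 0.11 with a common median.

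**Figure D5:**
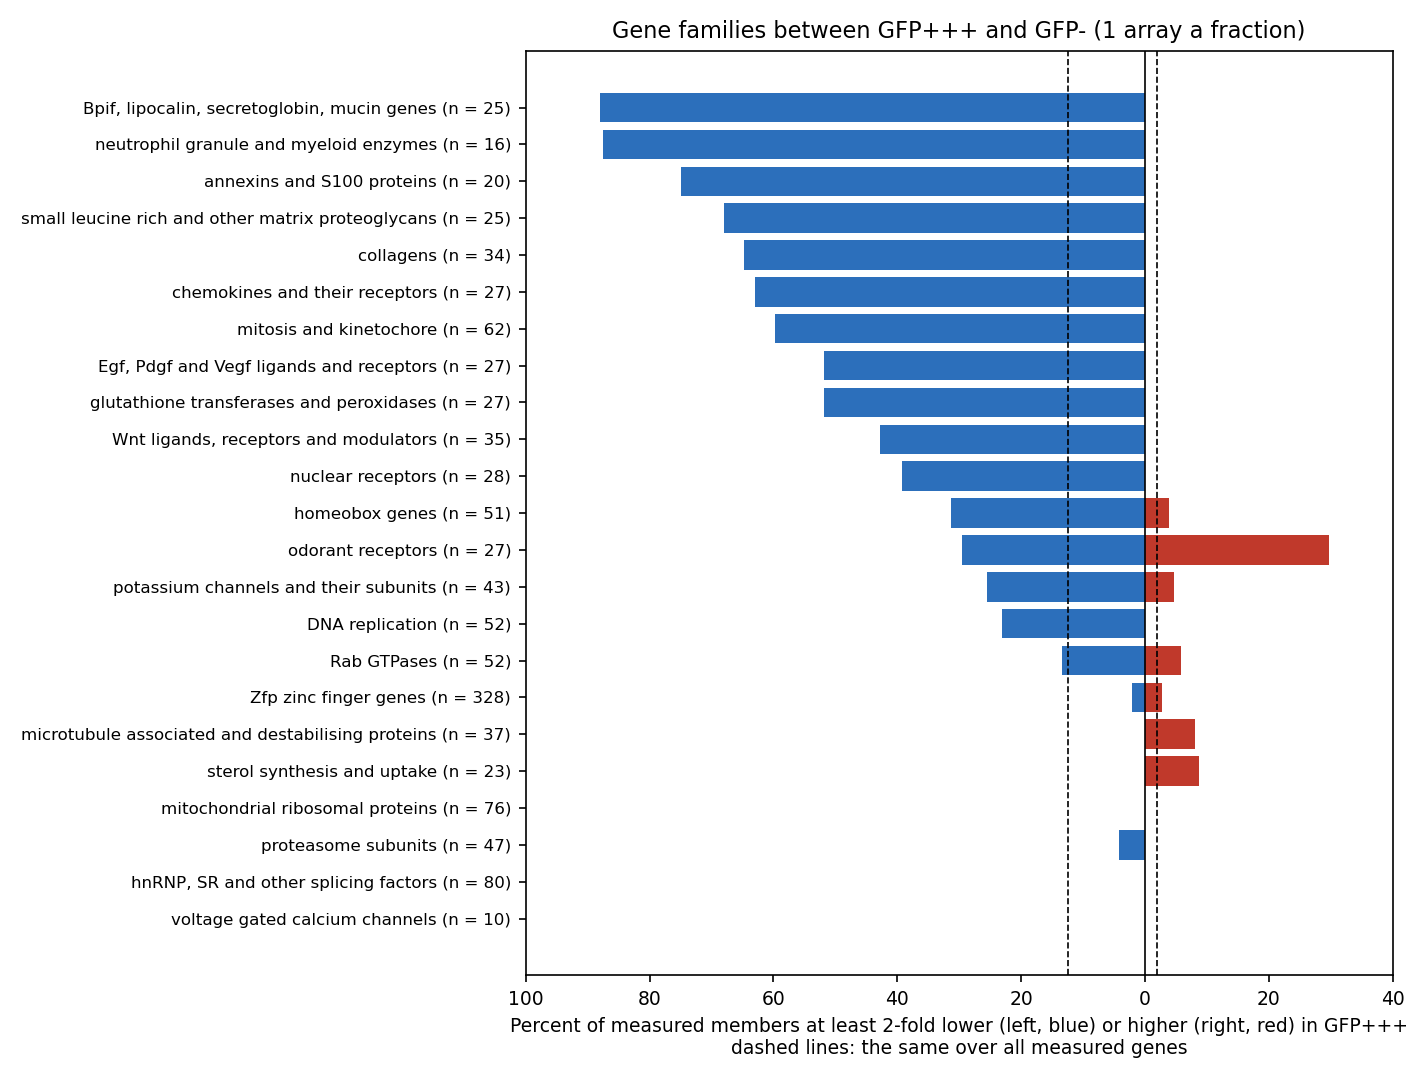
Percent of the measured members of 23 gene families at least 2-fold lower (blue, to the left) and higher (red, to the right) in GFP+++, with dashed lines at the shares of all genes, 12.4% and 1.92%. Secretory, myeloid, matrix and mitosis families lie far beyond the lower line, and mitochondrial ribosomal proteins and splicing factors have no bar. With a common median Rab GTPases turn from 3 higher and 7 lower to 8 higher and 3 lower, odorant receptors are at 9 and 6, and Zfp genes at 50 and 3.

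Many cell division genes were lower. Of 62 mitosis and kinetochore genes 37 were lower (59.7%) and none higher, with a median log2 fold of -1.11 and 4 members above 0. Of 35 cyclin, Cdk and E2F genes 13 were lower, and of 52 replication genes 12 were lower. The count for mitosis is 22 with a common median, and the median of the replication list moves from -0.41 to 0.01. Top2a, which untangles chromosomes, had 959 in GFP+++, 2458 in GFP+ and 3329 in GFP-, 3.47-fold lower. Ube2c, the conjugating enzyme that ends mitosis, had 1675, 2555 and 3492, 2.08-fold lower, and Cdc20, an activator of the same complex, had 1364, 2368 and 3116, 2.28-fold lower. In all 3 the order of the arrays was the same and GFP+++ kept a signal far above the floor. Ccnd2, a D type cyclin, was at least 8.68-fold lower (103, 611 and 906), Ccnd1 3.06-fold (1594, 2905 and 4879) and Ccnd3 1.87-fold. The inhibitor Cdkn2c was 3.16-fold lower, Cdkn1b differed by 1.05-fold and Cdkn1a was 1.67-fold higher (5465, 5395 and 3280). Of 31 kinesins 9 were lower, among them the spindle motors Kif11 and Kif23, and none was higher. Under the common median 5 are lower and 2 higher, and the median log2 fold of that list turns from -0.15 to 0.26.

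The promoters of lower mitosis genes often carry the CHR (TTTGAA) or the CCAAT box (CCAAT), short motifs known from genes expressed late in the cell cycle. How often a promoter holds both was not counted. Those of the 3 lower genes with the highest GFP- signal that hold both in the last 150 bases are shown. Each run gives the 150 bases before the RefSeq start, 5' to 3' in the direction of the gene, from GRCm38.p6, with matches to either motif on either strand in capitals. Ube2c lies at chr2:164769779-164769928 (plus strand), Top2a at chr11:99024190-99024339 (minus strand) and Cdc20 at chr4:118437344-118437493 (minus strand).
Ube2c: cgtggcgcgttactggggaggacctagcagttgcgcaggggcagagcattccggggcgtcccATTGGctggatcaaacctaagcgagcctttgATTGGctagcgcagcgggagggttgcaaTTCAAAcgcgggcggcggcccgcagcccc
Top2a: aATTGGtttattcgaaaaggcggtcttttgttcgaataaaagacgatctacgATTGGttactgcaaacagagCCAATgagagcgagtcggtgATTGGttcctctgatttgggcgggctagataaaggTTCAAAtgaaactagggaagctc
Cdc20: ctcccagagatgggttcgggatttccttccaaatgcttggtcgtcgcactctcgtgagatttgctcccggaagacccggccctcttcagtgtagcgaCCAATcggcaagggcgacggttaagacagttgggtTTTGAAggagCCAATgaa

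RefSeq windows from 250 bases before to 50 after a start were matched by symbol for 9889 of the 12235 genes. Of 33 windows of lower mitosis genes 60.6% held the CHR and 72.7% a CCAAT box. The shares were 11.9% and 37.4% over windows of measured genes and 17.9% and 37.4% over all 32851 windows. Windows of mitosis genes that were not lower held these motifs in 67.9% and 71.4% of 28 cases, close to the lower members. Sites for E2F factors (TTTCGCGC, TTTGGCGC or TTTCCCGC) are known from replication genes. They stood in 38.5% of 13 windows of lower replication genes and 28.6% of 42 windows of the others. Windows of measured genes held them in 3.34% of cases and all windows in 1.84%. Mcm5, a subunit of the replicative helicase, had 779, 1504 and 1920 in the order GFP+++, GFP+ and GFP-. Cdc6, which loads that helicase, had 45.6, 148 and 211. Their runs, from chr8:75109359-75109508 (plus strand) and chr11:98908001-98908150 (plus strand), are the only ones of lower replication genes with such a site in the last 150 bases, shown in capitals.
Mcm5: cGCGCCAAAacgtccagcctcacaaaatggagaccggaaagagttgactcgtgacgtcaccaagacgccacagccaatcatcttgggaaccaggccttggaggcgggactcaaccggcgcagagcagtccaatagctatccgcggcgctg
Cdc6: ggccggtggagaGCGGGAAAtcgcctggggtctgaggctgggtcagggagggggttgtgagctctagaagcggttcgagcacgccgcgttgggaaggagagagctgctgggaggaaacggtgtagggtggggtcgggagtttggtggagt

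Of 31 measured interferon induced genes 13 were lower (41.9%) and none higher, or 12 lower and 1 higher with a common median. Rsad2, an antiviral enzyme, had 198 in GFP+++, 534 in GFP+ and 942 in GFP-, 4.76-fold lower. Oas1a, a sensor of double stranded RNA, had 241, 351 and 483, close to the 2-fold limit, and Irgm1, a GTPase of innate immunity, had 63.1, 184 and 278. The interferon response motif, GAAA, any 2 bases and GAAA again, stood in 6 of 12 windows of lower members. It stood in 44.4% of 18 windows of the other members, 2.81% of windows of measured genes and 3.44% of all windows. The runs of these 3 genes, the brightest lower members with the motif in the last 150 bases, come from chr12:26456453-26456602 (minus strand), chr5:120907526-120907675 (minus strand) and chr11:48871421-48871570 (minus strand), with the motif in capitals, overlapping copies joined.
Rsad2: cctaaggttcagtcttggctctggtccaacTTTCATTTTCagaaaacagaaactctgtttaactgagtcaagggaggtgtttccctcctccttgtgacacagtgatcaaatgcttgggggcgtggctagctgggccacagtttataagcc
Oas1a: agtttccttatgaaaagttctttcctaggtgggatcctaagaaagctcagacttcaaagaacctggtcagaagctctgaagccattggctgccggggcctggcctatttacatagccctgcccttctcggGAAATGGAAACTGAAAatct
Irgm1: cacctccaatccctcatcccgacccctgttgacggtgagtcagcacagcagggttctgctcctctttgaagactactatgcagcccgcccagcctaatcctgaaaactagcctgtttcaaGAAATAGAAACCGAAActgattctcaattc

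Other motifs were searched over all higher and all lower genes. The palindrome of Ebf factors (TCCC, any 2 bases, GGGA), which act in olfactory neurons, stood in 0.816% of 245 windows of higher genes, 1.34% of 1498 windows of lower genes 1.09% of windows of measured genes and 0.904% of all windows. The E-box of proneural factors (CAGATG) stood in 13.9%, 13.0%, 11.5% and 17.2%. The PU.1 site of myeloid genes (GAGGAAGT) stood in 2.04%, 3.67%, 2.87% and 3.20%. Among Fc receptors and paired immune receptors it stood in 0 of 19 windows of lower genes and 3 of 9 windows of the others. The sterol element (TCACNCCAC) stood in 0.816%, 0.935%, 1.13% and 1.24%. The amino acid response element (TGATGNAAT) stood in 1.22%, 0.534%, 0.488% and 0.965%, that is in 3 windows of higher genes and 8 of lower genes. All were read on both strands. A match is a run of letters and not a site shown to be bound.

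Core machinery differed little. None of 80 splicing factor genes, 41 nuclear pore and transport receptor genes, 20 cytosolic aminoacyl tRNA synthetases or 76 mitochondrial ribosomal protein genes passed 2-fold. The mitochondrial ribosomal proteins lay above 0 in 71 of 76 cases, with a median log2 fold of 0.25 that was 0.23 after quantile normalization and 0.67 with a common median, where 6 pass 2-fold. The tRNA synthetases had a median of 0.15 and the proteasome genes 0.14.

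Grouping all measured genes by the root of the symbol gave 190 roots with at least 8 genes. In 28 of them at least 25% of the genes were lower, led by Anxa (6 of 8), Muc (6 of 8), Col (22 of 34), Ccl (6 of 10), Clec (5 of 9) and Fzd (5 of 9), the mucins, collagens, chemokines, lectins and Frizzled receptors among them. At least 10% were higher in 12 roots, beside 1.92% of all genes, led by Olfr (8 of 27), Snhg (2 of 13) and Dennd (2 of 15). In a root of 8 to 10 genes a single higher gene was enough for this, as in Fgf and Gng (1 of 8 each). No member passed 2-fold in 76 roots.

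Some lower genes were neighbours on the chromosome, by the order of measured genes in RefSeq. There were 10 stretches of at least 4 lower genes in a row. The MHC class II genes H2-Ab1, H2-Aa, H2-Eb1 and H2-Ea formed one, the chemokine genes Cxcl5, Pf4, Cxcl1 and Cxcl2 another, and Steap2, Steap1 and Steap4, which encode metal reductases, stood with Sri, a calcium binding protein. Other stretches joined genes of unlike function, such as Scara5, Pbk, Esco2, Scara3 and Clu. Higher genes stood side by side in 8 pairs, among them Nqo1 and Nob1 as well as AW551984 and Olfr976. How many stretches or pairs the shares of all genes, 12.4% lower and 1.92% higher, would give was not worked out. Nob1, a ribosome biogenesis factor, had 981, 719 and 383 on the 3 arrays. AW551984, with 761, 127 and 101, had the largest fold of the higher genes, at least 7.29-fold. Olfr78 was next to Hbb-y, an embryonic globin, which had 388, 150 and 16.7, at least 3.71-fold higher, although Alas2 and Slc4a1, genes of red cells, were lower.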

How the data were processed

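The authors deposited 1 linear signal intensity for every probe set of each array, and the submitters' processing notes name MAS5 for them. Neither its version nor a genome build is stated in these notes. Total RNA from TriReagent was labelled as biotin cRNA, per the labels' protocols. The 2% trimmed mean was 500.0 on each array, and the values were used as deposited. MAS5 gives a positive value to a probe set without signal, and no detection calls were used here. Of 45101 probe sets, 64 were controls, 34958 had 1 symbol, 932 several and 9211 none in the platform annotation. Of those with 1 symbol 34754 matched the RefSeq table of GRCm38.p6 by Entrez identifier, which changed 0 symbols.

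Signals were raised to the pooled median (percentile 50), log2 folds were taken, and a fold of 2 was the threshold. With 1 array a fraction there was no test. Python 3.11.15 was used with pandas 2.3.3 and numpy 2.4.6, and the steps were tested on simulated arrays. Alternatives were a common median, quantile normalization, floors at the percentiles 65 and 35, genes above the floor on both arrays, the median over probe sets, no probe sets with the suffixes _x_at or _s_at, and folds of 3 and 1.5.

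Members, gene lists and rules were chosen with earlier results of these data known. Named genes were, in each direction, the 25 largest folds measured on both arrays, the 15 largest bounds and the 15 largest signal differences, of which only some are given. From each list came all members past 2-fold if 6 or fewer and otherwise the 6 brightest, with members going the other way. Further genes were chosen after their values were seen, as were 13 added lists. Symbol lists also catch genes outside the named family, and only some of these are named.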

Additional observations from a re-analysis of the deposited data

Results flagged for a closer look

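Probe sets without a gene symbol took no part in the comparison, but carried signal. Of 9160 such probe sets 2488 were above the floor in GFP+++ or GFP-, of which 109 (4.38%) exceeded GFP- by 2-fold or more in GFP+++ and 142 (5.71%) fell short of it by 2-fold or more, with a median log2 fold of 0.05. A further 96 genes were above the floor in GFP+ and under it on both other arrays, with a median GFP+ signal of 120.4, and 3 of them reached at least 2 times the floor. The brightest was Ammecr1, with 240.0 in GFP+, 40.8 in GFP+++ and 100.3 in GFP-.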

How the results depend on the processing

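With both arrays scaled to a common median, 1129 genes were at least 2-fold higher and 1045 lower, and all 235 higher genes and 1045 of the 1522 lower genes kept their call. After quantile normalization 369 were higher and 1308 lower, with 220 and 1298 kept. With the floor at the percentile 65 the counts were 152 higher and 746 lower, with it at the percentile 35 they were 302 and 2333, and over genes above the floor on both arrays 219 and 902. At a fold of 3 they were 24 and 747, and at a fold of 1.5 they were 1139 and 2507. Taking the median over probe sets gave 199 and 1391, and leaving out suffixes _x_at and _s_at gave 235 and 1442. The median log2 fold of the laminins, nidogens and perlecan turned to 0.25 over genes above the floor on both arrays, a setting that leaves out its 9 members known only as bounds. The medians of 21 of 116 lists changed sign with a common median, and those of 29 lists did so in at least 1 setting. Over the settings that kept the fold of 2, there were 631 comparisons of a list median with its main value that moved by less than the probe set SD and 179 that moved by more. For the 105 named genes the comparisons were 521 and 169. Their log2 folds changed sign in none of these settings. These genes were picked for large folds or signal differences in this comparison, so a change of sign was unlikely from the start. The share of long non-coding genes was recomputed by a choice made after seeing the data. No paired analysis was possible because each fraction was measured on 1 array. Differences near the floor cannot be resolved, and the number of arrays limits the precision.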
